A study of Homo sapiens with 4 samples.

Results

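Sub-population 13 is one of the 19 groups of cells that the authors obtained by clustering single-cell RNA sequencing (scRNA-seq) profiles of 4 human lung cancer lines together. Its members are the cells averaged in the column headed 13 of the deposited tables, 378 of 24441 cells, or 1.55%. PC9 cells were established from a human lung adenocarcinoma and have a deletion in exon 19 of EGFR, which all 4 lines share. PC9-BrM4, labelled BM4, was derived from PC9 by repeated selection in mouse brain, after the parental cells had received a lentiviral reporter. C2 and R2 come from PC9-BrM4 brain metastases of mice that were given vehicle or the EGFR inhibitor osimertinib, respectively. All lines were cultured for 3 days without drug, and 1 library was made from each, after several passages of each line had been combined. A line is therefore a selected bulk population with no replicate, and a value belongs to a sub-population of the pooled clustering and not to a line. Sub-population 13 is attributed to PC9 and PC9-BrM4, although the columns carry no line. It was compared with sub-populations 2 and 3, attributed to PC9, and 6 and 7, attributed to PC9-BrM4, which together hold 8471 cells. No statistical test was applied, because the columns are means over cells, and a cluster set against others is no test.

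In droplet scRNA-seq, each captured transcript carries a unique molecular identifier (UMI), and the number of UMIs per cell is its depth. A droplet can be shallow because its cell was small, was damaged and lost cytoplasmic RNA, or was poorly captured. Damaged cells are commonly recognised by a high share of transcripts from the mitochondrial genome, since mitochondria remain when cytoplasmic RNA leaks out, and bare nuclei by nuclear RNAs such as MALAT1. Low depth is usually corrected in the software with a regression such as sctransform, which replaces each count by the one predicted at a common depth.

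The cells of sub-population 13 were shallow. Over genes whose uncorrected UMIs could be recovered exactly, the median gene in 13 had 0.146 of the mean corrected level in 2, 3, 6 and 7, which makes the cells 6.86-fold shallower. Uncorrected UMIs of both sides could be compared over 3464 measured genes. These summed to 158 UMIs per cell in 13, against 1023 in 2, 1472 in 3, 1135 in 6 and 841 in 7. Sub-population 13 thus lay far below all 4 reference columns, which themselves differed from each other by less than a factor of 2. On the genes recovered in every column, relative depth was 0.155 in 13, 0.153 in 14 and 0.104 in 16, and between 0.739 and 1.49 in the other 16 sub-populations. After the correction, 13 had 12491 UMIs per cell and the 4 reference columns had between 14306 and 15409, so that most of the difference in depth was no longer visible in the corrected table.

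The label was first checked against marker genes. The epithelial line markers (EPCAM, the keratins KRT7, KRT8, KRT18 and KRT19, and CDH1, which encodes E-cadherin) summed to 22457 CPM (corrected UMIs after each column was rescaled to 1000000) in 13 and to between 16980 and 19709 CPM in the reference columns. Sub-population 13 was therefore epithelial like its neighbours. Fibroblast markers summed to 0.212 CPM, endothelial markers to 2.12 CPM and erythroid markers to 0. Leukocyte markers summed to 44.9 CPM in 13 and 25 to 34.8 CPM in the reference, with PTPRC, the pan-leukocyte gene CD45, at 0 UMIs. Neural markers summed to 50 CPM against 44.1 to 81.5 CPM, with GFAP, SNAP25 and SYT1 at 0 UMIs.

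Across all genes, 13 was more like the PC9 columns than the C2 and R2 columns. For the genes that differ most, 13 stood between the sides. Across 7403 genes, Spearman's rank correlation of the corrected levels was between 0.943 and 0.948 with 2, 3, 6 and 7, and between 0.898 and 0.931 with 0, 1, 4 and 5, which are attributed to C2 and R2. Sub-population 9, which is not a reference column, gave 0.944, within the range of the reference columns. These coefficients are across genes and share the same correction. The 50 genes with the largest excess in 0, 1, 4 and 5, chosen without column 13, were then used as a ruler from 0 (the mean of 2, 3, 6 and 7) to 1 (the mean of 0, 1, 4 and 5). In uncorrected UMIs scaled by depth, 13 stood at a median of 0.312 on the linear scale over the 40 of these genes that were recovered, with quartiles of 0.204 and 0.445. The 50 genes with the largest excess in 2, 3, 6 and 7 gave 0.287 over 47 recovered genes, with quartiles of 0.14 and 0.42. On the log2 scale these medians were 0.45, with 23 of 40 genes nearer to PC9, and 0.18, with 45 of 47. In corrected UMIs the log2 medians were 0.29 and 0.52, with 28 and 24 of 50 genes nearer to PC9, so that the placement depended on the scale, the table and the genes. The PC9-side genes differed among themselves. On the log2 ruler in uncorrected UMIs, LCP1 (the actin-bundling protein L-plastin) stood at -0.01 with 48 UMIs, CYP1B1 (a cytochrome P450) at 0.18 with 51, FN1 (fibronectin) at -0.02 with 77, ALDH3A1 (an aldehyde dehydrogenase) at 0.04 with 62 and SOX4 (a transcription factor) at 0.50 with 15, the 5 genes with the largest excess on the PC9 side. Whether 13 mixes cells of both sides or holds intermediate cells cannot be told apart from cluster means.

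In the corrected table, sub-population 13 appeared to have lost the transcripts of low abundance. The effect of a gene is the log2 of its CPM in 13, with 5 added, minus the mean of the same value over 2, 3, 6 and 7. A gene was called when its effect reached 1 or -1 and its level in 13 was beyond the range of the 4 columns. Of 7211 genes with a mean of at least 10 CPM, 26 were called higher (0.361%) and 1360 lower (18.9%), with a median effect of -0.60. The median was -0.79 for genes of 10 to 20 CPM in the reference and -0.87 for those of 20 to 40 CPM. It was 0.22 for those of 40 to 80 CPM and between 0.16 and 0.28 in every bin above. The sign thus turned at about 40 CPM, which corresponds to 0.595 corrected UMIs per cell in the reference.

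The uncorrected UMIs did not show this difference between bins. They were recovered for 6774 of the measured genes, which include none of the 182 genes of at least 640 CPM, and were scaled by the depth of 13 given above. This scaling sets the median over all genes near 0 (0.01), so that only differences between bins carry information. The median lay between -0.00 and 0.03 in each bin from 10 to 320 CPM. The ratio of uncorrected UMIs to the reference was 0.145 in the bin of 20 to 40 CPM and 0.146 in that of 40 to 80 CPM. The correction multiplied the UMIs of 13 by a median of 2.67 in the first of these bins and by 6.46 in the second, so that the step between them was present only in the corrected values. In these values 23 genes were called higher (0.34%) and 18 lower (0.266%). Of the 1358 genes called lower in the corrected table and recovered, 18 kept the call. The median uncorrected effect over the 1358 was -0.34, and 47 of them were above 0. Most of the 1358 were thus also lower in uncorrected UMIs, though short of the call, but they were selected on the same cells. No measured gene that was recovered lacked a UMI in 13, but the median gene had 27 UMIs and 491 genes had fewer than 10, so that small losses were not detectable gene by gene at this depth.

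**Figure D1:**
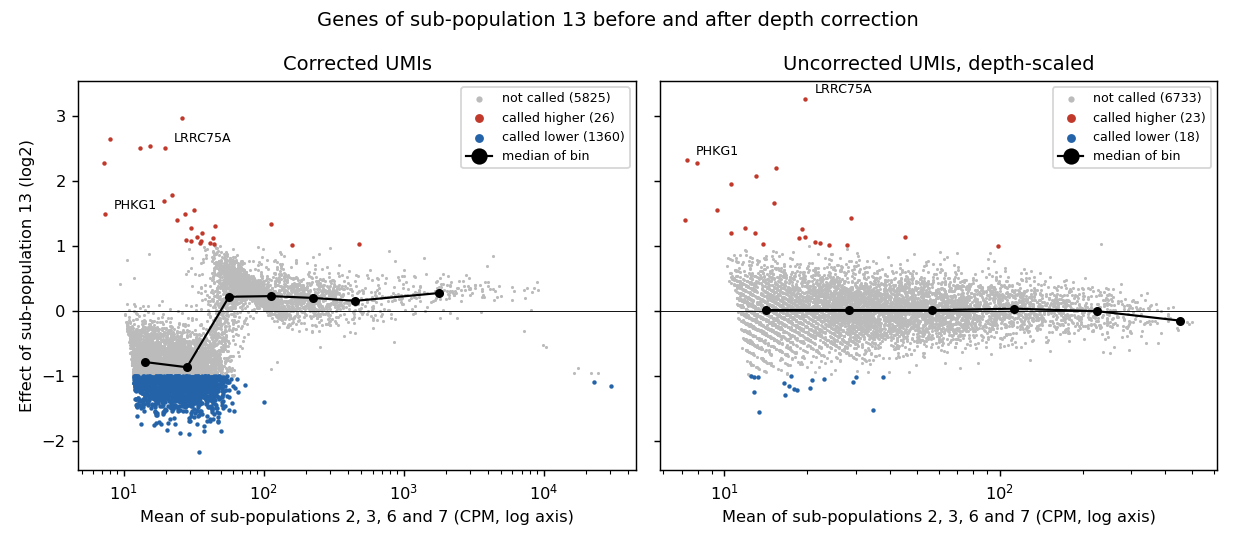
Effect of sub-population 13 (log2) against the mean level in sub-populations 2, 3, 6 and 7 (CPM, log axis), 1 point per measured gene, from corrected UMIs (left) and from recovered uncorrected UMIs scaled by depth (right). Black points are medians of bins, which step from -0.87 to 0.22 at 40 CPM on the left and lie between -0.15 and 0.03 on the right.

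The 15 largest decreases in the corrected table that had the same sign in the Poisson-inverted second table came with few UMIs in 13, and 8 of them were called lower in recovered UMIs. The most marked was UGT1A1, a glucuronosyltransferase that conjugates bilirubin. It had 3.6 CPM in 13 and 37.2, 45.5, 30.5 and 25.5 CPM in 2, 3, 6 and 7, an effect of -2.18. Its 7 UMIs in 378 cells compare with 28.4 expected from the reference, an uncorrected effect of -1.53. The UGT1A genes overlap at this locus and share their last exons, so that reads near the transcript end cannot be assigned to UGT1A1 alone. SLC16A3, the lactate exporter MCT4, had 13 UMIs where 30.8 were expected, and NAA25, a subunit of an N-terminal acetyltransferase, had 9 where 24.1 were expected. Their uncorrected effects were -1.02 and -1.10. BACE2 (an aspartyl protease), AHI1 (a ciliary gene), ZADH2, ODF2 and PCNX3 also kept the call, with 4 to 7 UMIs each. For ILVBL, PHF14, TM2D2, CHPT1, DCP1A, UTP20 and SOX4 the corrected effects between -1.88 and -1.70 shrank to between -0.96 and -0.73 in uncorrected UMIs, short of the call. Over the 18 genes called lower in uncorrected UMIs, 13 had 1 to 13 UMIs per gene. The 95% Poisson interval, which covers counting error only, lay below the lowest reference column for 14 genes. Because the genes were selected on these same UMIs out of 6774, the intervals describe them and are no test of the calls.

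The 2 genes that mark sub-population 13 are LRRC75A, which encodes a leucine-rich repeat protein of little known function, and PHKG1, the catalytic subunit of muscle phosphorylase kinase, which activates glycogen breakdown. They were given as markers from these data, so their levels are a description. LRRC75A lies on the minus strand of chromosome 17 (GRCh38, chr17:16441577-16492193), where it overlaps the non-coding RNA gene SNHG29 on the plus strand. PHKG1 lies on the minus strand of chromosome 7 (chr7:56080283-56092996) and overlaps SUMF2 on the plus strand, which itself had an uncorrected effect of 0.24.

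LRRC75A was at 135 CPM in 13, and at 16.4 CPM in 2, 20.1 in 3, 23.3 in 6 and 18.9 in 7, an effect of 2.51. Behind this were 190 UMIs in 127 of 378 cells, where the reference would give 16.1. The depth-scaled level was 232 CPM (95% Poisson interval 200.1 to 267), and the uncorrected effect was 3.27. Even without any scaling, a cell of 13 held more LRRC75A than a deeper cell of the reference. The UMIs per cell were 0.503 in 13 (0.434 to 0.579), 0.244 in 2, 0.353 in 3, 0.35 in 6 and 0.263 in 7, so that the interval of 13 overlapped none of the reference values. Across the 19 sub-populations, only 14 had more, 0.664 UMIs per cell (0.576 to 0.763). Sub-populations 12, at 0.494, and 10, at 0.451, lay within the interval of 13. The share of cells with a UMI was 33.6% in 13 and 2.27% in 16, the other sub-population of very low depth.

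PHKG1 was at 29.4 CPM in 13 and at 8.44, 8.62, 5.96 and 6.24 CPM in 2, 3, 6 and 7, an effect of 1.49. It had 46 UMIs in 42 cells where 6 were expected, a depth-scaled level of 56.1 CPM (41.1 to 74.9) and an uncorrected effect of 2.32. Per cell, PHKG1 in 13 (0.122 UMIs, 0.0891 to 0.162) was close to the reference, with 2 (0.125), 3 (0.139) and 6 (0.09) inside the interval of 13 and 7 (0.0869) just below it. In 14 it reached 0.475 UMIs per cell (0.4 to 0.56), above every other sub-population. Of 12 measured genes of glycogen metabolism, PHKG1 was the only one called in the uncorrected UMIs. PHKG2, the liver isoform of the same subunit, had 12 UMIs and an effect of -0.39, and PYGL, liver glycogen phosphorylase, had 36 UMIs and an effect of 0.64.

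**Figure D2:**
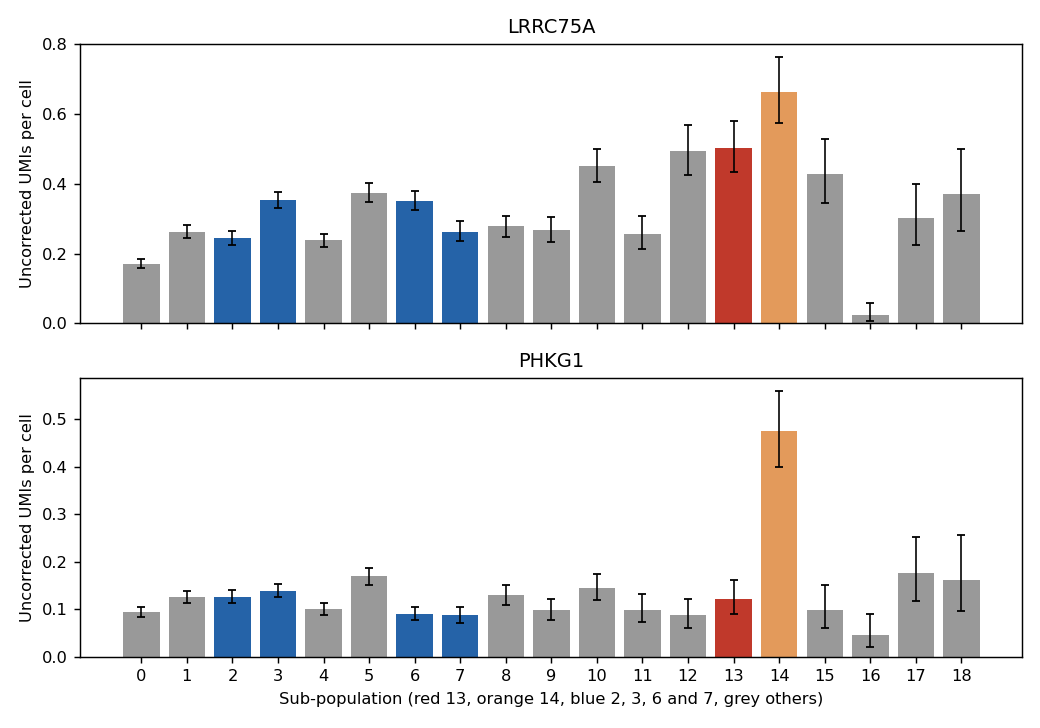
Uncorrected UMIs per cell of LRRC75A and PHKG1 (vertical axes) in sub-populations 0 to 18, with 95% Poisson intervals as error bars that cover counting error only. For LRRC75A, 13 (red) at 0.503 lies above the blue reference columns, whereas for PHKG1 it lies among them at 0.122 and 14 (orange) stands apart.

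Most other genes called higher in 13 were genes of the C2 and R2 side. Of the 23 genes called higher in uncorrected UMIs, 21 had a side difference, of which 15 were at least 1 (log2) higher in 0, 1, 4 and 5 than in 2, 3, 6 and 7, and 0 were as much higher on the PC9 side. Of all 7403 genes compared, 1.54% were as much higher on the C2 and R2 side and 1.05% on the PC9 side. The effect of 13 and the side difference are both taken against 2, 3, 6 and 7. A gene low in those columns is therefore raised in both, which these shares over all genes do not allow for. Against columns 0 to 7 as reference, 2 genes were called higher in the corrected table, LRRC75A and PHKG1. In uncorrected UMIs 7 were called with that reference: both markers, HIST1H2AH, B4GALT1, YPEL5, CTNNB1 and CDC42SE1.

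Among the side genes were secreted and surface proteins. BST2, the interferon-induced virus restriction factor tetherin, was at 94.2 CPM in 13, 27 in 2, 26.6 in 3, 3.65 in 6 and 4.49 in 7. IL11, a cytokine of the IL-6 family, was at 73.1 CPM in 13, 4.01 in 2, 4.95 in 3, 13.9 in 6 and 8.92 in 7. S100A4, a calcium-binding protein linked to cell motility, was at 95.9 CPM in 13, 10.4 in 2, 8.38 in 3, 18.6 in 6 and 14.9 in 7. All 3 lay above every reference column, and their uncorrected effects were 2.20, 2.27 and 2.08. Their UMIs were held by a minority of the cells. BST2 had 60 UMIs in 39 cells, with up to 8 in a cell, S100A4 had 57 in 37 cells and IL11 had 45 in 33 cells. FOXD1, a forkhead transcription factor, RAMP1, a co-receptor of calcitonin-family peptides, and HLA-B, an antigen-presenting molecule whose reads may be shared with other HLA class I genes, followed with uncorrected effects of 1.14, 1.05 and 1.02. CCDC57 and FAM83A, also in the corrected list, had 1.14 and 1.01.

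PI3 (the protease inhibitor elafin) was not called in the corrected table but had an uncorrected effect of 1.96. It, and the other genes called only in uncorrected UMIs, were chosen after their values were seen. PI3 had 42 UMIs in 26 cells where 8.67 were expected, and it is higher on the C2 and R2 side. MGP (matrix Gla protein) had the largest corrected effect, 2.98, with 168 CPM in 13 and 5.67, 2.66, 51.6 and 44.6 CPM in 2, 3, 6 and 7. MGP, SELENOM (an endoplasmic reticulum selenoprotein, 1.55), LCN2 (the iron-scavenging lipocalin, 1.33), AKR1B1 (aldose reductase, 1.04) and HSPB1 (a small heat shock protein, 1.02) could not be recovered exactly. In the Poisson-inverted second table, the effects of these 5 genes were 0.81, 3.46, 0.12, 2.01 and 1.35, in that order. Their sizes thus differed widely between the tables. ARHGEF28, a guanine nucleotide exchange factor, had a corrected effect of 1.07 and an uncorrected one of 0.89.

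A few genes were called higher in uncorrected UMIs without reaching a side difference of 1. B4GALT1, a galactosyltransferase of the Golgi, had 71 UMIs in 61 cells where 23.7 were expected, a depth-scaled level of 86.6 CPM (67.7 to 109) against 24.8 to 31.8 CPM in the reference, and an effect of 1.44. Its corrected effect was 0.61. HIST1H2AH, a histone H2A gene expressed during DNA replication, had 38 UMIs in 32 cells and an uncorrected effect of 1.66. Its reference was itself split, with 30.7 and 23.2 CPM in 3 and 6, the mitotic sub-populations, and 3.3 and 3.34 CPM in 2 and 7. The depth-scaled level of 46.4 CPM in 13 (32.8 to 63.7) was above all of them. GABARAPL2, a protein of the autophagosome membrane, had 166 UMIs where 80.9 were expected (effect 1.01) and a side difference of 0.90. OPTN, a cargo receptor of autophagy, had 43 UMIs where 15.7 were expected (effect 1.26) and was a side gene, with a difference of 1.05.

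Gene lists showed the same contrast between the tables. In the corrected table the medians of lists with at least 5 measured members ranged from -0.76 to 0.42 and followed abundance. Cholesterol synthesis and uptake (-0.75), zinc finger genes (-0.74), chromatin regulators (-0.69) and glycogen metabolism (-0.65), all of low abundance, were among the lowest. Ribosomal proteins (0.32), the actin cytoskeleton (0.30), the nuclear-encoded respiratory chain (0.25) and the proteasome (0.20), all abundant, were above 0. In uncorrected UMIs the medians of 40 of the 43 lists with at least 5 recovered members lay within 0.25 of 0. Cholesterol synthesis was then at 0.00, zinc finger genes at -0.05, chromatin regulators at -0.13, the respiratory chain at 0.04 and the proteasome at 0.02. For the last 2, only 44 of 73 and 26 of 32 measured members were recovered. Their medians in the 2 tables are therefore over different genes, and how much of the change comes from this was not tested. The classes that were low in the corrected table thus had about the same proportion of UMIs as in the reference.

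**Figure D3:**
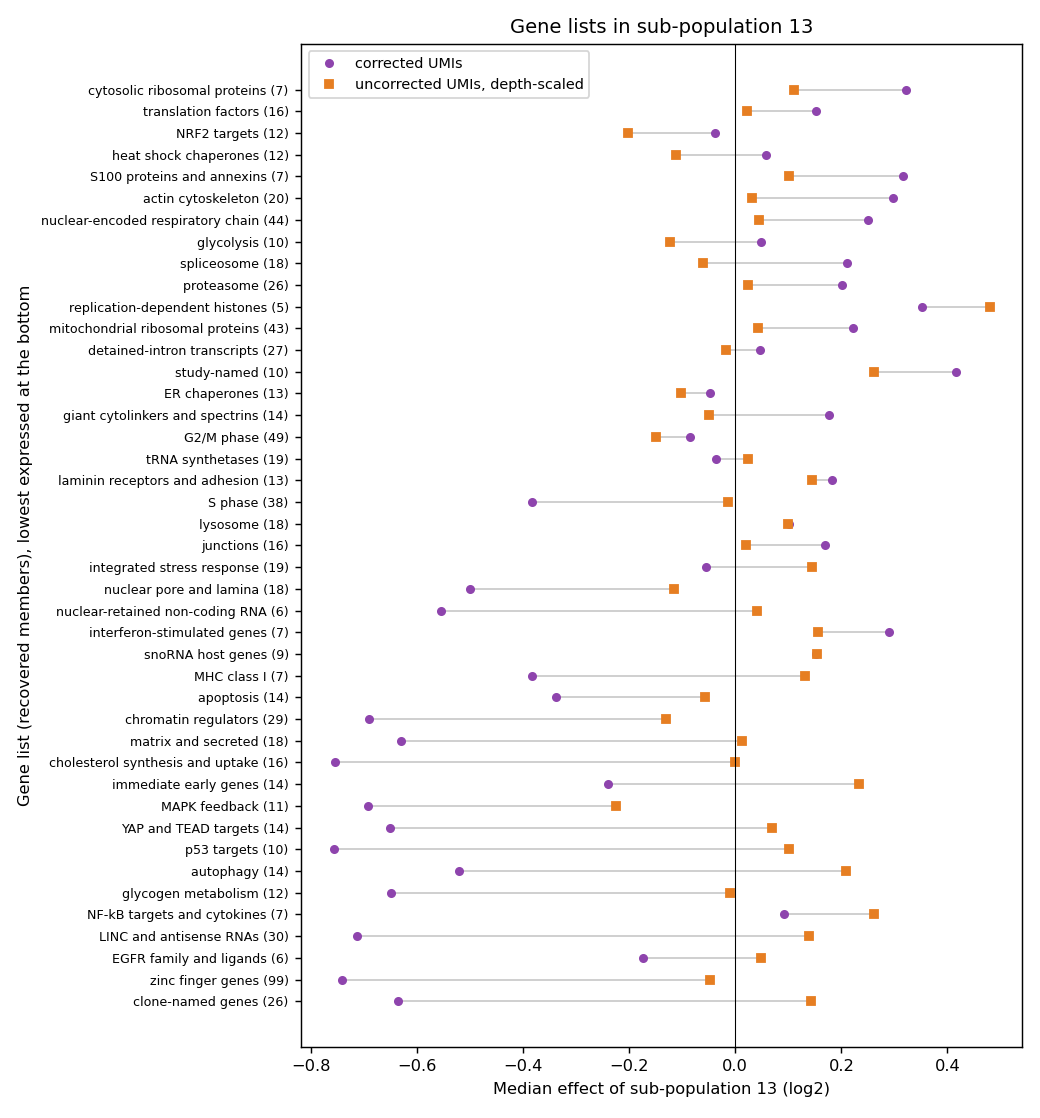
Median effect of sub-population 13 (log2, horizontal axis) of each gene list with at least 5 recovered members, given in brackets, from corrected (purple circles) and uncorrected UMIs (orange squares), with the lists ordered by abundance. The corrected medians, taken over all measured members, reach -0.76 for lists of low abundance, and 40 of 43 uncorrected medians lie within 0.25 of 0.

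In uncorrected UMIs, where 0.34% of all genes were called higher, 9 of the 43 lists held a gene called higher and 1 a gene called lower. Besides PHKG1 in glycogen metabolism, the single calls included S100A4 among 7 S100 proteins and annexins, IL11 among 7 NF-kB targets and cytokines, BST2 among 7 interferon-stimulated genes and HLA-B among 7 MHC class I genes. Of 14 recovered autophagy genes 2 were called higher, OPTN and GABARAPL2, and 0 lower, with a median of 0.21. MAP1LC3B, the autophagosome protein LC3, had 77 UMIs and an effect of 0.75, short of the call. Of 5 recovered replication-dependent histones, 1 was called higher, HIST1H2AH, with a list median of 0.48. HIST1H1D, a linker histone, had an effect of 1.03 that was not called because 13 lay within the range of the reference. No gene of the S phase list (38 genes, median -0.01) or of the G2/M list (49 recovered, median -0.15) was called. For the proliferation marker MKI67, 13 at a depth-scaled 181 CPM lay between 2 and 7 (129 and 116 CPM) and 3 and 6 (373 and 290 CPM), and TOP2A, a topoisomerase of mitotic cells, did the same at 171 CPM. CDC20, an activator of mitotic exit, was the lowest G2/M gene, with 60 UMIs and an effect of -0.76.

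Stress genes gave no common shift. The median was 0.14 for integrated stress response genes (19 recovered), 0.10 for p53 targets (10), -0.11 for heat shock chaperones (12), -0.06 for apoptosis genes (14) and 0.23 for immediate early genes (14). None of their recovered members was called in uncorrected UMIs. In the corrected table, HSPB1 (1.02, not recovered) was called higher and 0 of 20 heat shock chaperones lower. Of the 10 measured p53 targets, GADD45A was called higher (1.03, uncorrected 0.63 with 58 UMIs) and 2 lower. Of 21 integrated stress response, 14 apoptosis and 14 immediate early genes measured, 0 were higher and 1, 4 and 1 lower. Over all genes measured in the corrected table, 0.361% were called higher and 18.9% lower, so these counts show no shift of the lists by themselves. JUND, an AP-1 transcription factor, was the highest immediate early gene, with 107 UMIs and an effect of 0.89. Feedback genes of the MAPK pathway had a median of -0.22 over 11 genes, the lowest among lists with at least 5 recovered members. Of the genes the study named, which it chose on these cells and which are no independent evidence, PRNP (the prion protein) had an effect of 0.91 with 94 UMIs and was not called. FOSL1, an AP-1 subunit, differed in sign between the tables, with 0.72 in corrected and -0.39 in uncorrected UMIs (27 UMIs).

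The share of transcripts from the mitochondrial genome was lower in 13, and here only the corrected table was available for most genes. The 13 mitochondrially encoded genes made up 9% of corrected UMIs in 13 and 15.7%, 15.2%, 17.2% and 17.7% in 2, 3, 6 and 7. They made up 6.72% in 14 and 70.9% in 16. Sub-population 13 was thus below the 4 reference columns, together with 14, while the shallowest sub-population was far above them. MT-CO3, a subunit of cytochrome c oxidase, was at 13521 CPM in 13 and at 29037, 28268, 31226 and 32160 CPM in 2, 3, 6 and 7, an effect of -1.16. MT-ND4, a subunit of complex I, had an effect of -1.09, and these 2 of 13 genes were called lower. Over all measured genes 18.9% were called lower, most of them of low abundance. Of the 182 genes of at least 640 CPM, these 2 were the only ones called lower. MT-CO1, MT-CO2, MT-ATP6 and MT-ND1 had effects between -0.96 and -0.89.

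The difference was smaller for the less abundant members. MT-ND2, MT-CYB and MT-ND3 were below all 4 reference columns with effects of -0.30, -0.53 and -0.55. MT-ND4L (0.52), MT-ND5 (0.25), MT-ATP8 (0.22) and MT-ND6 (-0.09) were not called, and MT-ATP8, the only one recovered, had 193 UMIs and an uncorrected effect of 0.23. The 8 nuclear genes at least as abundant as MT-ND2 (7247 CPM) had effects between 0.01 and 0.44, and the 30 nuclear genes of at least 3500 CPM had effects between -0.02 and 0.84. The most abundant nuclear gene was KRT18, a keratin, at 9204 CPM, and 8 mitochondrial genes lay above it, so that no nuclear gene matched the abundance of those with the lowest effects. The percentage of mitochondrial transcripts was a covariate of the authors' correction, and its part in these values was not tested.

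**Figure D4:**
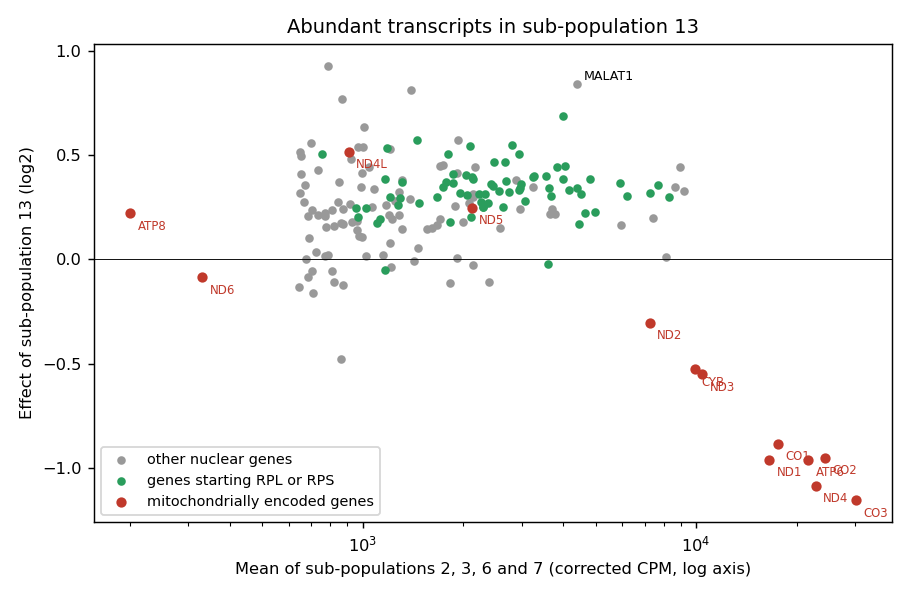
Effect of sub-population 13 (log2, corrected UMIs) against the mean of sub-populations 2, 3, 6 and 7 (CPM, log axis) for nuclear genes of at least 640 CPM and for the 13 mitochondrially encoded genes (red). The red points fall from 0.52 for MT-ND4L to -1.16 for MT-CO3, while nuclear genes of at least 3500 CPM lie between -0.02 and 0.84.

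Nuclear RNAs were not raised as a group. MALAT1, a long non-coding RNA of nuclear speckles, was at 7797 CPM in 13 and at 4426, 5204, 4248 and 3675 CPM in 2, 3, 6 and 7, an effect of 0.84. NEAT1, the RNA scaffold of paraspeckles, was at 775 CPM and within the reference range (744 to 915 CPM). The 6 recovered members of the nuclear-retained list had a median uncorrected effect of 0.04, and transcripts with detained introns had -0.02 over 27 genes. The highest effects among nuclear genes of at least 640 CPM were those of TMSB10 (0.93) and TMSB4X (0.81), actin-binding thymosins, MALAT1, LGALS1 (galectin 1, 0.77) and RPL37 (0.69), a ribosomal protein.

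Transcript length, GC content and exon number had little relation to the uncorrected effects in 13. Across genes, Spearman's rank correlation with canonical transcript length was -0.12 over 6576 genes, with exon number -0.18 and with GC content 0.01. The longest transcripts, of 6000 bases and more, had a median effect of -0.03, and those under 1000 bases had 0.14. Protein-coding genes had a median of 0.01 over 6523 genes and long non-coding RNAs 0.13 over 53 genes.

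Sub-population 14, the other shallow group, is attributed to the side of C2 and R2 and was compared with 0, 1, 4 and 5, so that the 2 comparisons share no column. In 14, the rank correlation with length was -0.53 over 5823 genes. Among genes of 40 to 320 CPM the median effect in 14 fell from 0.44 under 1000 bases to -0.47 at 6000 bases and more, and in 13 from 0.14 to -0.03. In corrected UMIs, 4 genes were higher in 14 (0.0594%) and 1307 lower (19.4%) of 6735, and 2 and 506 of these were shared with 13. The 506 were 37.2% of the genes lower in 13 and 38.7% of those lower in 14. Of all measured genes, 18.9% were lower in 13. Both lists come from the same correction, so the overlap is no independent evidence. The 2 were 7.69% of the genes higher in 13 and 50% of those in 14. Uncorrected UMIs gave 35 genes higher (0.558%) and 163 lower (2.6%) of 6277 in 14. The 3 genes higher in both were LRRC75A, PHKG1 and B4GALT1, 13% of the genes higher in 13 and 8.57% of those higher in 14. Their effects in 14 were 3.56, 3.84 and 1.44, against 3.27, 2.32 and 1.44 in 13. UGT1A1 was the 1 gene lower in both, at -1.67 in 14 with 3 UMIs. CTNNB1, which encodes beta-catenin, and TMEM120B, a membrane protein gene, were called in 14 at 1.79 and 1.69 and had 0.96 and 0.91 in 13.

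**Figure D5:**
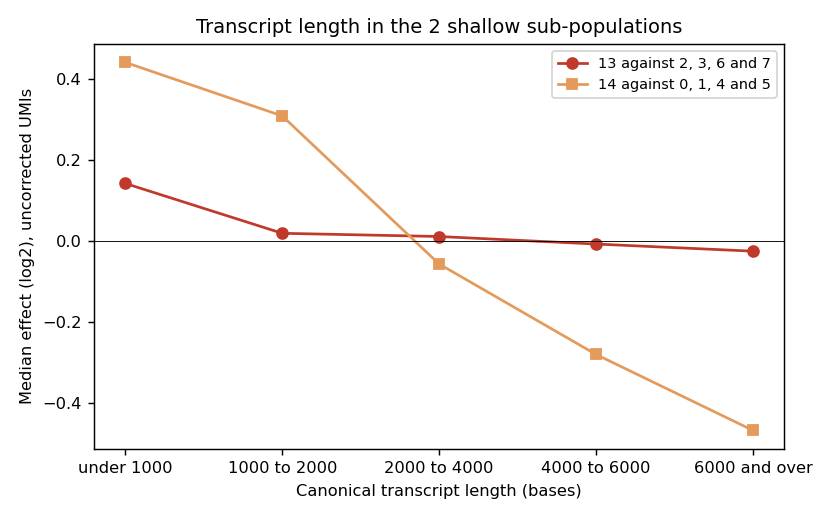
Median uncorrected effect (log2, vertical axis) of genes of 40 to 320 CPM by canonical transcript length in bases, for 13 against 2, 3, 6 and 7 (red circles) and 14 against 0, 1, 4 and 5 (orange squares). Sub-population 13 goes from 0.14 to -0.03 and 14 from 0.44 to -0.47.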

How the data were processed

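The authors made 10x 3′ libraries, aligned reads to hg38 with Cell Ranger and clustered cells in Seurat 3 after sctransform with mitochondrial percentage as a covariate. The deposited tables, 2 in number, give each sub-population 1 column. The first holds mean corrected UMIs per cell (19973 genes) and the second, per its values, the mean of e^count − 1 of uncorrected UMIs (21158 genes, 140 values overflowed); neither other unit is a count per library, and the depth of each library was not used here.

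Cell numbers were recovered from the steps of the corrected means. Uncorrected UMIs were recovered as the whole numbers of cells with 1, 2, 3 and more UMIs whose summed e^count − 1 matched the deposited value, where that sum was at most 8000. This recovery was chosen after the data were seen, was tested on simulated data, and leaves 438 genes of 13 out. Scripts used Python 3.11.15 with pandas, NumPy, SciPy and numba.

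Columns were rescaled to 1000000, with a pseudocount of 5 CPM. Depth-scaled values divide uncorrected means by 0.146, and their reference columns stay corrected. With the reference also uncorrected, 3466 genes could be compared, and 14 of 14 genes called higher and 13 of 15 called lower kept the call. Named genes were the 15 largest and 15 smallest effects among called genes with the same sign in the second table after inversion for Poisson counts, without clone-named, mitochondrial and ribosomal protein genes, plus both markers and leading list members. The members and lists were chosen with earlier results of these data known. Annotation was GENCODE 44, which matched 7000 of 7211 measured genes by symbol. Alternatives were other pseudocounts, filters, sizes, scalings and reference columns. Doublets were not assessed. Results for some genes are not reported here.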

Additional observations from a re-analysis of the deposited data

How the results depend on the processing

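The count of genes higher in the corrected table (26) was 63 in the Poisson-inverted table, 14 with a pseudocount of 20 CPM, 8 with a filter of 50 CPM, 484 at a size of 0.5, 15 without rescaling, 827 centred on the median, 44 against 6 and 7, 41 against 2 and 7, 2 against columns 0 to 7 and 148 with the median of expression bins subtracted. The count lower (1360), under the same alternatives from the Poisson-inverted table to the centring, was 3028, 26, 11, 3955, 2319 and 33, and it was 805 against 2 and 7. It was 2522 with a pseudocount of 1 CPM, 2234 without mitochondrially encoded genes, 84 with bin medians subtracted and 18 in uncorrected UMIs. In uncorrected UMIs, the counts higher (23) and lower (18) became 39 and 73 with a pseudocount of 1 CPM, 8 and 0 with 20 CPM, 1 and 0 with a filter of 50 CPM, 175 and 31 with no filter, 378 and 354 at a size of 0.5, and 7 and 11 against columns 0 to 7. The count lower was 30 without mitochondrially encoded genes and 35 against 3 and 6. Genes shared with 14 (2 higher, 506 lower) were 5 and 1288 in the Poisson-inverted table, and 1 was lower in both in uncorrected UMIs. Leaving out 1 reference column at a time moved no count by over 1.5 times. None of the 31 genes named by the largest effects or as markers changed sign under an alternative with a value for it. For the Poisson-inverted table this was fixed in advance, because the naming rule required the same sign there. All but PHKG1 were also chosen for extreme effects in the main setting, so their steady sign is no independent evidence. The list members FOSL1 (0.72 to -0.39) and OPTN (-0.04 to 1.26) did change sign in uncorrected UMIs. These 31 genes lost 15 calls against columns 0 to 7, 12 with bin medians subtracted, 11 with a pseudocount of 20 CPM, and 8 of 26 in uncorrected UMIs. Of 46 list medians, 18 had the other sign in uncorrected UMIs, where only recovered members count. Among them, the mitochondrially encoded list went from -0.55 over 13 genes to 0.23 in 1 gene, MT-ATP8. At least 5 members were recovered in 43 of the lists. The causes were not tested. No paired analysis was possible because the columns are pooled sub-populations and each line has 1 library. Low UMI numbers limit single genes, with a median of 27 UMIs per gene in all of 13.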
